A study of Homo sapiens with 6 samples.

Results

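The anaphase-promoting complex or cyclosome (APC/C) was described here through 10 genes taken by name from a deposited table of 33392 genes. They are the E2 enzymes UBE2C and UBE2S, the coactivator FZR1, the inhibitor FBXO5, the substrate PTTG1, and the subunits CDC27, CDC16, CDC23, ANAPC1 and ANAPC5. RNA sequencing covered 6 libraries of HK-2 cells, an immortalised proximal tubule epithelial line of the human kidney. All cells were exposed to TGF-β1 and carry a time point of 48 h. The control group received a scramble siRNA (TGF-β1+Scramble, 3 libraries) and the other group an siRNA against the protein kinase DYRK2 (TGF-β1+siRNA-DYRK2, 3 libraries, called siDYRK2 here). The comparison asks how these transcripts differ when DYRK2 is silenced in cells that all have TGF-β1. The study is concerned with DYRK2, CDK1 and G2/M dysregulation in tubular cells. Effects of the siRNA on other transcripts and effects of DYRK2 loss cannot be told apart with these libraries. All libraries come from 1 cell line. The labels do not state that replicates were separate cultures, so a p-value reflects only how far these libraries vary, and that variation may be technical. Cells without TGF-β1 were not analysed here.

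The APC/C is a ubiquitin ligase that ends mitosis by marking securin and the mitotic cyclins for the proteasome. It works with CDC20 in mitosis and with FZR1, also called CDH1, from late mitosis through G1. UBE2C starts the ubiquitin chain and UBE2S extends it. FBXO5, also called EMI1, holds the FZR1 form inactive while cells replicate their DNA. Most control of the complex is exerted on its proteins, by phosphorylation, inhibitor binding and degradation, and none of these was measured. In bulk RNA, fewer cells in a cell cycle phase and less RNA per cell cannot be told apart.

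Expression was given as FPKM (fragments scaled by transcript length and by library total), so levels of different genes can be set side by side. A library summed to between 252318 and 255378 FPKM, and its depth in reads is unknown. DYRK2 stood at 5.84, 6.06 and 5.96 FPKM with the scramble siRNA and at 1.45, 1.54 and 1.49 FPKM with siDYRK2 (log2 fold change −1.69, limma adjusted p = 2.0e-06). Of 15 proximal tubule markers 12 had a row, and 0 of them reached a mean of 0.5 FPKM. Their summed level was 1.07 to 1.22 FPKM with the scramble siRNA and 0.91 to 1.14 FPKM with siDYRK2, and PAX8 was at most 0.19 FPKM. All 6 general epithelial markers reached 0.5 FPKM, with sums of 718 to 734 FPKM and of 768 to 808 FPKM in the same order, and they moved in unlike directions. KRT7 was at 377 to 385 FPKM and at 524 to 558 FPKM, while KRT18 (119 to 127 and 85.1 to 90.4), KRT19 (152 to 165 and 93.0 to 102) and CDH1 (2.9 to 3.05 and 1.03 to 1.29) were lower in each siDYRK2 library, and KRT8 and EPCAM overlapped. NKX2-1, a factor of lung and thyroid epithelium, stood at 23.07 to 27.3 FPKM, so the tubule label goes against the marker levels while the epithelial label does not. Of 7 lung epithelial markers 3 reached 0.5 FPKM, and the list summed to 30.8 to 34.1 and to 28.4 to 29.7 FPKM. Of 7 fibroblast markers 0 reached 0.5 FPKM, with sums of 0.37 to 0.42 and of 0.64 to 0.81 FPKM, and of 4 endothelial markers 0 did, with sums of at most 0.07 FPKM. Of 4 immune markers CD68, a lysosomal protein that other cells also make, was the only one to do so, and the list summed to 11.3 to 17.8 and to 17.0 to 17.8 FPKM. The part of these marker levels in the results was not tested.

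The stretches before the start sites of FBXO5, CDC23 and PTTG1 are shown because the first 2 genes had the smallest adjusted p of the 10 and PTTG1 was not called. They are RefSeq windows on GRCh38.p14, read in the direction of the gene and limited to bases outside exons of the GENCODE v29 annotation. Capitals mark CCAAT and its reverse ATTGG, the reverse TTCAAA of the CHR word TTTGAA, and an E2F word.
FBXO5 (chr6:152983042-152983233, minus strand): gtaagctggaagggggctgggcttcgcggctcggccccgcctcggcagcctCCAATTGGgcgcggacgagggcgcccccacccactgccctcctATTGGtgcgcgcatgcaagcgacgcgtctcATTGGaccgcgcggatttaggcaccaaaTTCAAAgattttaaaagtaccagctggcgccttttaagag
CDC23 (chr5:138213344-138213573, minus strand): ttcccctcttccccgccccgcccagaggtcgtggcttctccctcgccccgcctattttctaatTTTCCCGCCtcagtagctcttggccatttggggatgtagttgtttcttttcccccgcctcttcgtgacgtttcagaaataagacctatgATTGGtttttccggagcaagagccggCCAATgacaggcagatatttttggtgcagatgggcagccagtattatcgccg
PTTG1 (chr5:160421712-160421821, plus strand): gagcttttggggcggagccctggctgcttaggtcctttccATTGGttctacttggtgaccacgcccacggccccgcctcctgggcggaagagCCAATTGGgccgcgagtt

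CCAAT boxes bind the factor NF-Y, and CHR and E2F words are the elements through which DREAM and related complexes repress cell cycle genes outside their phase. The FBXO5 stretch of 192 bases holds 4 CCAAT words, 2 of them overlapping on opposite strands, and 1 CHR word. It lies within the annotated gene, before the downstream of its RefSeq starts, and the window of the upstream start holds none of the words. The CDC23 stretch of 230 bases holds 2 CCAAT words and 2 overlapping E2F words. PTTG1, in 110 bases, holds 3 CCAAT words, 2 of them overlapping. Over the 250 bases before a start, on both strands, the 9 genes found have 12 windows, some overlapping, of which 8 hold CCAAT, 2 a CHR word (TTTGAA or TTCGAA) and 2 an E2F word (TTCCCGCC, TTTCCCGC, TTTGGCGC or TTTCGCGC). Counted the same way over all 35116 windows, 32.0% hold CCAAT, 14.3% a CHR word and 4.31% an E2F word. UBE2C has no window. These matches are descriptions of letters, and CCAAT words stand both before genes that were called and before genes that were not. The same holds for the other words: the other CHR window belongs to FZR1 and the other E2F window to CDC16. Neither of these genes was called.

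All 10 genes were expressed above the filter of a mean of 0.5 FPKM. At an adjusted p under 0.05 in limma, a linear model fitted to log2(FPKM + 0.5) of all 15121 genes tested, 6 of the 10 were called higher with siDYRK2, namely FBXO5, CDC23, UBE2S, ANAPC1, CDC27 and ANAPC5, against 20.4% of all genes tested. None was called lower (0 of 10 by limma, 1 at an unadjusted p under 0.05), against 17.9% of all genes tested. For these 6 genes all siDYRK2 libraries were above all scramble libraries, and groups lay apart, in either direction, for 51.7% of all genes tested. The 10 genes had a median difference of 0.15 on the log2 scale, beside 0.01 over all genes tested. Differences were small, with the mean level of the called genes 7.51% to 42.9% above that of the scramble group. The calls of FBXO5 and CDC23 were kept under all 15 alternative analyses, while those of UBE2S, ANAPC1, CDC27 and ANAPC5 were each lost under some of them. Only 2 of the 10 were called without scramble replicate 3, and 3 without scramble replicate 2 or without siDYRK2 replicate 3.

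**Figure D1:**
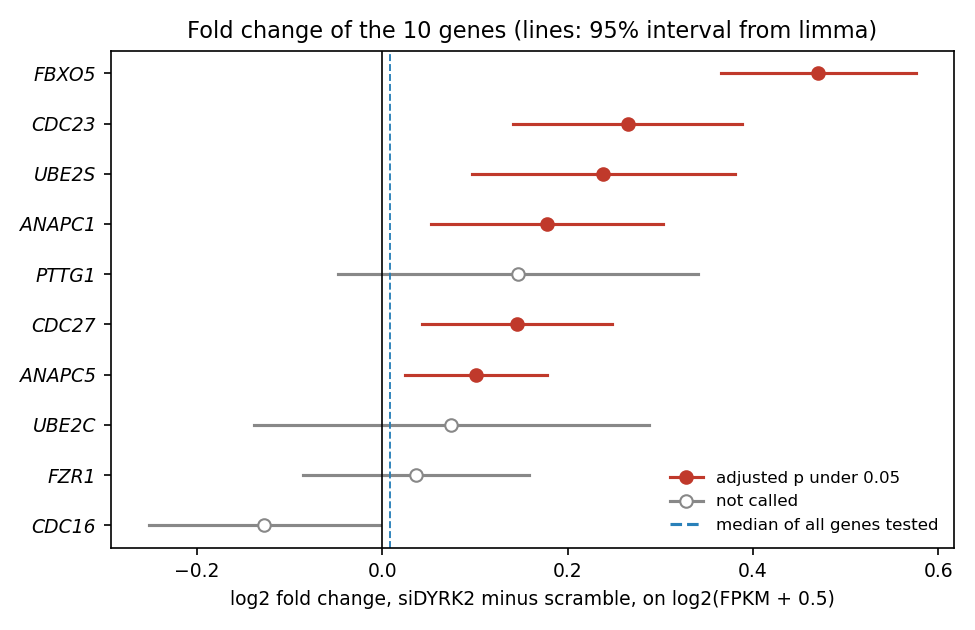
Log2 fold change of each gene, siDYRK2 minus scramble on log2(FPKM + 0.5), with the unadjusted 95% interval from limma as a line; filled red points were called at an adjusted p under 0.05, and the dashed line is the median of all genes tested. FBXO5 lies highest at 0.47, and CDC16 at −0.13 is the only point left of 0.

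The largest difference was in the inhibitor. FBXO5 (ENSG00000112029; GRCh38 chromosome 6, 152970519 to 152983579, minus strand) stood at 4.62, 4.39 and 4.52 FPKM with the scramble siRNA and at 6.55, 6.53 and 6.25 FPKM with siDYRK2. The lowest siDYRK2 library was well above the highest scramble library, and the spread within each group was narrow. The mean rose 1.43-fold, from 4.51 ± 0.115 to 6.44 ± 0.168 FPKM (SD, n = 3). On the log2 scale this was 0.47 (SE 0.0447, limma adjusted p = 2.7e-04). Over the alternatives its log2 fold change lay between 0.43 and 0.51 and its adjusted p between 1.5e-04 and 0.0037. It was nevertheless the lowest of the 10 genes in level in the scramble libraries.

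FZR1, the coactivator that FBXO5 inhibits, was nearly level. FZR1 (ENSG00000105325; chromosome 19, 3506273 to 3538330, plus strand) stood at 8.72, 8.76 and 8.22 FPKM with the scramble siRNA and at 8.29, 8.83 and 9.29 FPKM with siDYRK2. The groups overlapped, and its log2 fold change of 0.04 (95% interval −0.09 to 0.16, limma adjusted p = 0.62) turned to −0.0012 without siDYRK2 replicate 3. The ratio of FBXO5 to FZR1 within a library, a quantity chosen after the values were seen, was 0.530, 0.501 and 0.550 with the scramble siRNA and 0.790, 0.740 and 0.673 with siDYRK2. The ratios did not overlap, and the exact two-sided permutation test gave p = 0.1, the smallest that 3 against 3 libraries allow.

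The 2 E2 enzymes were the most abundant of the 10 genes and stood at about the same level in scramble cells. UBE2S (ENSG00000108106; chromosome 19, 55399745 to 55407777, minus strand), which extends the chains, stood at 28.39, 27.61 and 26.51 FPKM with the scramble siRNA and at 30.54, 31.57 and 35.7 FPKM with siDYRK2. All siDYRK2 libraries were above all scramble libraries, with siDYRK2 replicate 3 the highest. The mean rose 1.19-fold (log2 fold change 0.24, SE 0.0605, limma adjusted p = 0.018). The call was lost without scramble replicate 2 (adjusted p = 0.051) or scramble replicate 3 (0.055), and when low values were not filtered (0.075).

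UBE2C (ENSG00000175063; chromosome 20, 45812576 to 45816957, plus strand), which starts the chains, stood at 28.45, 28.75 and 24.59 FPKM with the scramble siRNA and at 25.61, 28.63 and 32.12 FPKM with siDYRK2. The highest and the second lowest library both belong to the siDYRK2 group, so the groups overlapped widely. Its log2 fold change was 0.07 (95% interval −0.14 to 0.29, limma adjusted p = 0.56) and was −0.0062 without siDYRK2 replicate 3. The ratio of UBE2S to UBE2C within a library, also chosen after the values were seen, was 0.998, 0.960 and 1.08 with the scramble siRNA and 1.19, 1.10 and 1.11 with siDYRK2. These ratios did not overlap either (exact two-sided permutation p = 0.1, the smallest possible).

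PTTG1 (ENSG00000164611; chromosome 5, 160421822 to 160428744, plus strand) encodes securin, which keeps separase inactive until the APC/C destroys it. It stood at 11.41, 12.51 and 10.2 FPKM with the scramble siRNA and at 12.14, 11.94 and 13.79 FPKM with siDYRK2. Scramble replicate 2 was above 2 of the siDYRK2 libraries, and the log2 fold change of 0.15 did not pass the test (95% interval −0.05 to 0.34, limma adjusted p = 0.21). The pseudogene PTTG3P was listed at 0.04 FPKM in siDYRK2 replicate 3 and at 0 in the others. UBE2SP1 and UBE2SP2, copies of UBE2S, had means of 1.63 and 0.95 FPKM with the scramble siRNA and of 1.49 and 0.877 FPKM with siDYRK2. UBE2CP2 and UBE2CP5 had means of 0.58 and 0.167 FPKM with the scramble siRNA and of 0.28 and 0.0733 FPKM with siDYRK2. UBE2CP2, below the filter and so not tested, lay lower in every siDYRK2 library.

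**Figure D2:**
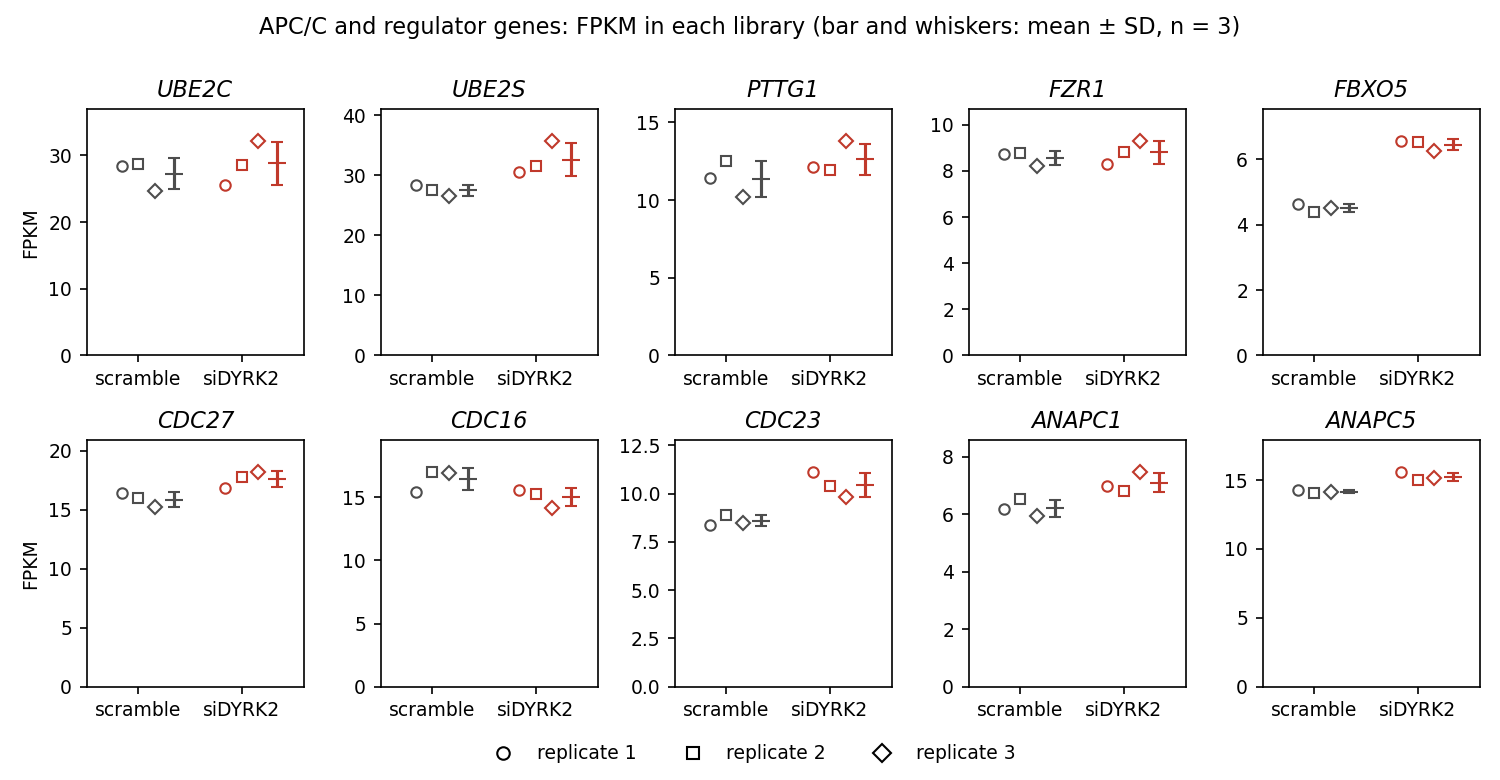
FPKM of each of the 10 genes in the 3 scramble libraries (grey) and the 3 siDYRK2 libraries (red), with symbols for the replicate number and a bar with whiskers for the mean ± SD (n = 3); each vertical axis starts at 0. The red points lie wholly above the grey ones for UBE2S, FBXO5, CDC27, CDC23, ANAPC1 and ANAPC5.

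Of the 5 subunits among the 10 genes, CDC23 differed most. CDC23, CDC27 and CDC16 build the arm of tetratricopeptide repeat subunits that receives the coactivators. CDC23 (ENSG00000094880; chromosome 5, 138187648 to 138213343, minus strand) stood at 8.37, 8.92 and 8.5 FPKM with the scramble siRNA and at 11.1, 10.38 and 9.84 FPKM with siDYRK2. The groups were apart, and the mean rose 1.21-fold (log2 fold change 0.27, SE 0.0526, limma adjusted p = 0.0067). The adjusted p lay between 0.0044 and 0.026 over the alternatives.

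CDC27 (ENSG00000004897; chromosome 17, 47117703 to 47189422, minus strand) stood at 16.41, 16.02 and 15.22 FPKM with the scramble siRNA and at 16.89, 17.78 and 18.18 FPKM with siDYRK2. The groups did not overlap, but the gap between them was narrower than the spread within either. The mean rose 1.11-fold (log2 fold change 0.15, SE 0.0437, limma adjusted p = 0.035). The call was lost without scramble replicate 2 or 3 and without siDYRK2 replicate 2 or 3, at adjusted p from 0.082 to 0.096. Its pseudogenes CDC27P1 and CDC27P3 were at or below 0.22 FPKM in every library.

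CDC16 (ENSG00000130177; chromosome 13, 114234887 to 114272723, plus strand) was the only one of the 10 with a negative log2 fold change. It stood at 15.4, 16.96 and 16.9 FPKM with the scramble siRNA and at 15.53, 15.26 and 14.17 FPKM with siDYRK2. The groups overlapped through scramble replicate 1. Its log2 fold change of −0.13 did not pass the test (unadjusted 95% interval −0.25 to −0.0029, limma adjusted p = 0.099). Without scramble replicate 1 the adjusted p was 0.043, with a log2 fold change of −0.17.

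ANAPC1 and ANAPC5 belong to the platform of the complex, ANAPC1 being its largest subunit. ANAPC1 (ENSG00000153107; chromosome 2, 111611639 to 111884690, minus strand) stood at 6.17, 6.53 and 5.94 FPKM with the scramble siRNA and at 7.0, 6.82 and 7.46 FPKM with siDYRK2. The mean rose 1.14-fold without overlap of the groups (log2 fold change 0.18, SE 0.0532, limma adjusted p = 0.035). The call was lost without scramble replicate 1 or 3 and without siDYRK2 replicate 1 or 3, at adjusted p from 0.073 to 0.093.

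The level of ANAPC1 is uncertain because a transcribed copy stands at a like level. The copy named ANAPC1P2 (ENSG00000285793; chromosome 2, 87030675 to 87076429, minus strand, a processed transcript in the annotation) lay at 5.43, 6.21 and 6.35 FPKM with the scramble siRNA and at 6.34, 6.4 and 5.43 FPKM with siDYRK2, and was not called (limma adjusted p = 0.92). How the deposited values divided reads between them is not given in the sources used here, and its part in the ANAPC1 value was not tested. Of the 22 paralogs and pseudogenes listed for the 10 genes, 11 had no row under the listed name, and 3 of the rows found were tested, with 0 called (limma, also 0 at an unadjusted p under 0.05).

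ANAPC5 (ENSG00000089053; chromosome 12, 121308245 to 121399896, minus strand) had the smallest difference of the genes called. It stood at 14.26, 14.04 and 14.17 FPKM with the scramble siRNA and at 15.56, 14.98 and 15.12 FPKM with siDYRK2. The 2 groups were each tight and apart, with a mean 7.51% higher (log2 fold change 0.10, SE 0.0327, limma adjusted p = 0.046). The call was lost on leaving out any 1 of the 6 libraries, at adjusted p from 0.073 to 0.14.

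**Figure D3:**
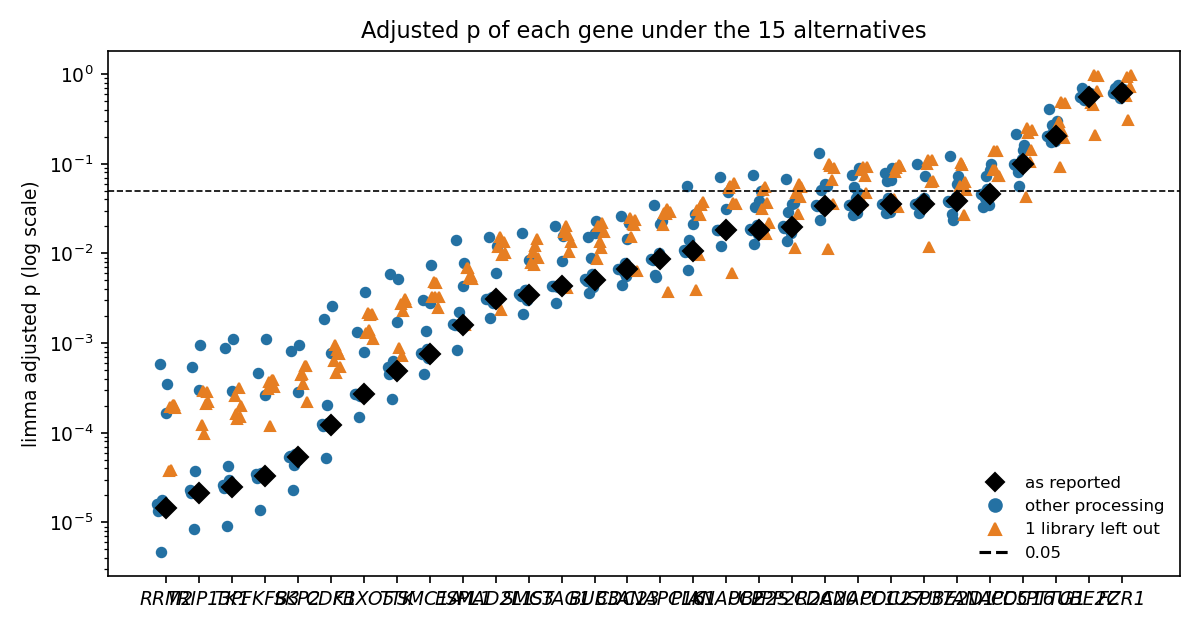
Limma adjusted p of each gene on a log scale, as reported (black diamond), under 9 other processing settings (blue) and with 1 library left out (orange); the dashed line is 0.05. All points of FBXO5 and CDC23 lie below the line, and those of UBE2S, ANAPC1, CDC27 and ANAPC5 fall on both sides.

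The 10 genes differed in how they varied within the groups, a pattern looked for after the values were seen. UBE2C, UBE2S, PTTG1, FZR1, CDC27 and ANAPC1 were each highest, within the siDYRK2 group, in replicate 3 and lowest, within the scramble group, in replicate 3. This held for 6 of the 10 genes and for 12.5% of all genes tested. FBXO5, CDC23, ANAPC5 and CDC16 did not show it. Without siDYRK2 replicate 3 the log2 fold changes of UBE2C and FZR1 were −0.0062 and −0.0012.

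The gene whose level followed UBE2C most closely over the 6 libraries was FZR1, with a Pearson correlation of 0.994 on log2(FPKM + 0.5). Next came SNORD19C at 0.978, TTC9C at 0.974, PANK2 at 0.972 and PCNT at 0.971. These are descriptions over 6 points that share library and scaling, picked as the highest of all genes tested, and no p is attached to them. In FPKM the range of UBE2C, 24.59 to 32.12, was much wider than that of FZR1, 8.22 to 9.29.

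**Figure D4:**
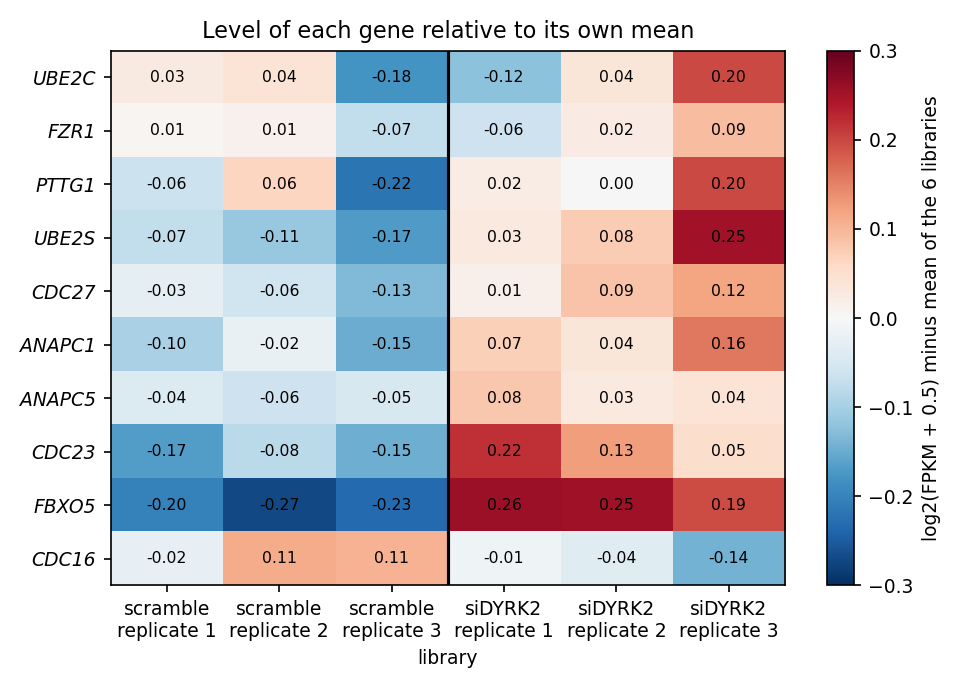
Each cell is log2(FPKM + 0.5) of a gene in a library minus the mean of that gene over the 6 libraries, red above and blue below the mean, with scramble libraries left of the line and siDYRK2 libraries right. FBXO5, CDC23, ANAPC5, UBE2S, CDC27 and ANAPC1 split by group. UBE2C, FZR1, PTTG1, UBE2S, CDC27 and ANAPC1 are lowest in scramble replicate 3 and highest in siDYRK2 replicate 3.

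Around the 10 genes, lists of related genes were counted in the same way, and the shares over all genes tested, 20.4% called higher and 17.9% called lower, are the background for each count. Of the 9 other core subunits listed, 0 were called higher and 2 lower by limma (0 and 3 at an unadjusted p under 0.05), and their median on the log2 scale was 0.03. ANAPC16, a small accessory subunit, stood at 19.45, 19.63 and 20.4 FPKM with the scramble siRNA and at 16.02, 17.99 and 16.28 FPKM with siDYRK2, without overlap (log2 fold change −0.24, limma adjusted p = 0.0086). ANAPC2, the cullin of the catalytic core, stood at 9.23, 9.83 and 8.15 and at 7.55, 6.84 and 7.53 FPKM, also without overlap (log2 fold change −0.29, limma adjusted p = 0.018). The call of ANAPC2 was lost without scramble replicate 1 or 2 or siDYRK2 replicate 2 (adjusted p from 0.054 to 0.060). The RING partner of ANAPC2, ANAPC11, was not called, at 9.86 ± 0.710 and 10.2 FPKM on average.

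Over all 14 core subunits, 4 were called higher, 2 lower and 8 not at all, both counts lying near the shares over all genes tested (20.4% and 17.9%). Their summed level was 151.7, 152.1 and 151.8 FPKM with the scramble siRNA and 148.1, 151.1 and 149.5 FPKM with siDYRK2. The sum was thus slightly lower in every siDYRK2 library (exact two-sided permutation p = 0.1, the smallest possible). The groups were close, at 151.7 against 151.1 FPKM where nearest, and library totals themselves ranged from 252318 to 255378 FPKM. The sum was not taken under another scaling.

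CDC20, the mitotic coactivator, stood at 37.53, 31.99 and 31.21 FPKM with the scramble siRNA and at 40.0, 38.05 and 45.27 FPKM with siDYRK2. Its groups were apart by a narrow gap, with a 1.22-fold rise (log2 fold change 0.29, limma adjusted p = 0.034). The call was lost without scramble replicate 2 or 3 or siDYRK2 replicate 1 or 3 (adjusted p from 0.067 to 0.10). UBE2D1, an E2 enzyme that can also start chains on the APC/C, fell from 9.33, 9.83 and 9.94 to 8.86, 8.47 and 7.28 FPKM (log2 fold change −0.23, limma adjusted p = 0.038). That call was lost without any 1 of the scramble libraries and without siDYRK2 replicate 2 or 3 (adjusted p from 0.051 to 0.10).

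Among 10 further inhibitors and checkpoint genes, 6 were called higher and 1 lower, and their median on the log2 scale was 0.23. Without scramble replicate 2 the count called in either direction was 4. Most of the list belongs to the spindle checkpoint, which holds the CDC20 form inactive until chromosomes are attached, and some members take the inhibitory complex apart. TRIP13, an ATPase that remodels MAD2 and helps to take that complex apart, stood at 29.89, 28.97 and 27.69 FPKM and at 46.33, 47.65 and 48.39 FPKM, a 1.64-fold rise (limma adjusted p = 2.2e-05). TTK, the kinase that starts checkpoint signalling, rose 1.94-fold (adjusted p = 4.9e-04) and BUB3, the partner of the BUB kinases, by 15.1% (adjusted p = 0.0050). MAD2L1, the MAD2 subunit of the inhibitory complex, was the one called lower. It fell from 6.28, 6.1 and 5.46 to 4.59, 4.23 and 4.52 FPKM (log2 fold change −0.38, limma adjusted p = 0.0031). BUB1B and BUB1, of the same list, were called higher (1.29-fold and 1.24-fold, limma adjusted p = 0.027 and 0.046). MAD2L2 was not called, at a log2 fold change of 0.05. MAD1L1 and MAD2L1BP lay lower in every siDYRK2 library by narrow gaps, at log2 fold changes of −0.11 each. Neither was called (limma adjusted p = 0.17 and 0.14), and groups lay apart for 51.7% of all genes tested. FBXO43, the relative of FBXO5 known as EMI2, stood at 1.45, 1.51 and 1.6 and at 2.0, 1.87 and 1.92 FPKM. It was called higher (limma adjusted p = 0.018), with both group means below the alternative filter of 2 FPKM. The calls of FBXO43, BUB1B and BUB1 were not followed singly through the alternatives.

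A list of 8 genes held kinases, phosphatases and deubiquitinases around the complex, and the ubiquitin ligase subunit BTRC, which is none of these. Of the 8, 4 were called higher and 0 lower by limma (0 lower at an unadjusted p under 0.05). Without siDYRK2 replicate 1 or 3 the count called was 2. CDK1, which phosphorylates the APC/C in mitosis, rose 1.59-fold (limma adjusted p = 1.2e-04). PLK1, which marks FBXO5 for destruction, rose 1.36-fold (adjusted p = 0.011, and 0.057 without a filter on low values). PPP2R2A, a regulatory subunit of protein phosphatase 2A, rose 1.18-fold, and was not called without siDYRK2 replicate 1 or 3 (adjusted p = 0.059 and 0.055). USP37, which removes ubiquitin from cyclin A, rose 1.23-fold, and was not called when any 1 library other than scramble replicate 3 was left out (adjusted p from 0.063 to 0.11).

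Downstream of securin, 6 of 10 separase and cohesin genes were called higher and 1 lower, and their median on the log2 scale was 0.27. ESPL1, which encodes separase, stood at 4.75, 3.81 and 4.01 FPKM with the scramble siRNA and at 6.49, 6.49 and 7.67 FPKM with siDYRK2. The groups were far apart, and the mean rose 1.64-fold (log2 fold change 0.66, SE 0.0936, limma adjusted p = 0.0016), beside PTTG1, its inhibitor, at 1.11-fold without a call. The cohesin ring subunits SMC1A and SMC3 rose 1.26-fold each (limma adjusted p = 7.7e-04 and 0.0034). STAG1, one of the alternative cohesin subunits, fell from 5.78 ± 0.381 to 4.39 ± 0.254 FPKM (SD, n = 3; adjusted p = 0.0044).

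Genes whose proteins the APC/C destroys were mostly higher. Of 30 listed substrates, PTTG1 not counted, 24 were called higher and 0 lower by limma (0 at an unadjusted p under 0.05), and their median on the log2 scale was 0.37. The 4 with the smallest adjusted p were RRM2, TK1, PFKFB3 and SKP2. TK1, the thymidine kinase of the nucleotide salvage pathway, stood at 35.25, 37.41 and 33.62 and at 70.89, 66.26 and 74.26 FPKM (1.99-fold, limma adjusted p = 2.5e-05). SKP2, the receptor of another ubiquitin ligase that degrades p27, rose 1.84-fold from 3.85 ± 0.121 to 7.07 ± 0.351 FPKM (SD, n = 3). PFKFB3, a regulator of glycolysis, rose 1.66-fold, and RRM2 2.48-fold. CCNB1, cyclin B1, was among the 6 not called, at 17.2 ± 2.27 and 18.2 FPKM on average. Its log2 fold change was 0.08 (95% interval −0.18 to 0.33, limma adjusted p = 0.60), the lowest of the 30, which were all positive. The interval holds both no change and a modest rise, so the missing call does not show that CCNB1 was unchanged. CDC20 and PLK1 stand in this list and in another, and the lists were written with earlier results of these libraries known, so their counts are not independent evidence.

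**Figure D5:**
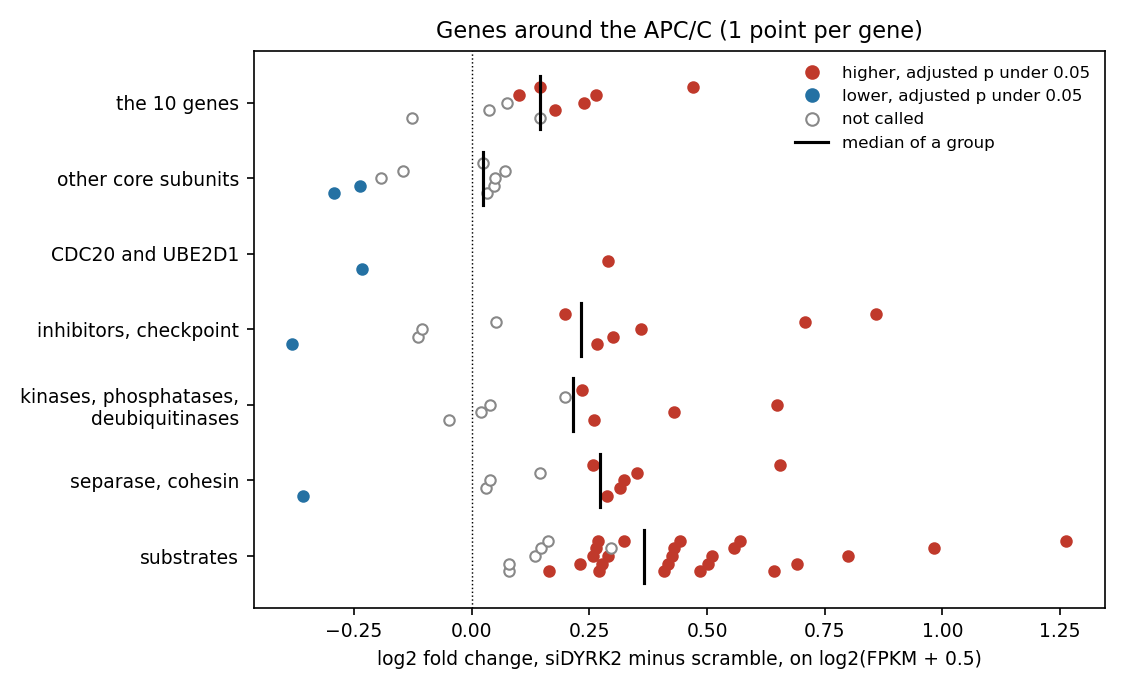
Log2 fold change, siDYRK2 minus scramble on log2(FPKM + 0.5), of each gene in 7 groups around the APC/C; red points were called higher, blue lower and open points were not called, and black bars are group medians. The substrates lie furthest right with a median of 0.37, and the other core subunits centre on 0.03 with 2 blue points.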

How the data were processed

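Total RNA of 6 HK-2 libraries was sequenced on Illumina instruments, as the labels state. The authors deposited FPKM values for 33392 Ensembl genes, 1 column per library and 2 decimals, per the file headers. HISAT2, StringTie and GRCh38 are named in the submitters' processing notes, and the annotation, the strandedness and the handling of multiply mapped reads were not given in the sources used here. FPKM is scaled within a library, so abundant transcripts shift others. Whole reads could not be recovered. Many step sizes were tried per library and the best was kept. With it, 24.1% to 26.0% of length-scaled values of short single-transcript genes lay within 0.1 of a whole number. A single step size gives 20% by chance, and the best of many can give more. Depth is thus unknown and no count model was used.

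The 15121 genes whose mean over the 6 libraries reached 0.5 FPKM entered limma 3.58.1 (R 4.3.3) as log2(FPKM + 0.5), fitted without a block and with the variance trend, and p-values were adjusted over all of them by Benjamini-Hochberg, with calls at 0.05. The pseudocount understates changes of low genes. Means and SDs are over 3 libraries, and folds are ratios of mean FPKM. The 15 alternatives changed the pseudocount, the filter, the scaling, the variance trend or the block, or left out 1 library. The fit was tested on simulated data. Names came from the table's gene name column. The 10 genes and all lists were chosen with earlier results of these data known. Named genes are the 10, DYRK2, CDC20, ESPL1, up to 4 called genes of each list with the smallest adjusted p, and copies of the 10. The 5 genes most correlated with UBE2C are named too. A few members of lists were picked after their values were seen (ANAPC11, FBXO43, BUB1B, BUB1, MAD2L2, MAD1L1, MAD2L1BP, BTRC and CCNB1). The labels do not state whether replicate numbers pair the libraries. Coordinates are from GENCODE v29, and motifs were searched in Python 3.11.15.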

Additional observations from a re-analysis of the deposited data

How the results depend on the processing

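FBXO5 and CDC23 stayed called higher under all 15 alternatives. Without a filter on low values UBE2S (0.24), CDC27 (0.15) and ANAPC1 (0.18) kept their log2 fold change and lost the call. With median-ratio scaling CDC27 (0.13), ANAPC1 (0.17) and ANAPC5 (0.0886) lost it, with every library rescaled to the same sum ANAPC5 (0.10), and without the variance trend CDC27 (0.15) and ANAPC5 (0.10). The cause of these losses, with and without the filter, was not tested. The count of the 10 genes called fell from 6 to 3 without a filter and with median-ratio scaling. Of the other core subunits 1, of CDC20 and UBE2D1 0 and of the kinase, phosphatase and deubiquitinase list 1 were called without a filter, and of CDC20 and UBE2D1 1 with median-ratio scaling and 0 without the trend.

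Same-numbered libraries deviated from their group means with correlations of −0.077, 0.024 and −0.088, and not every library correlated best with its own number. Deviations from means of 3 libraries cannot show whether same-numbered libraries were prepared together, and the labels do not state it. With the replicate number as a block CDC27 (0.15), ANAPC1 (0.18) and ANAPC5 (0.10) lost the call, 3 of the 10 genes, 0 of CDC20 and UBE2D1 and 4 of the inhibitors and checkpoint genes were called.

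Leaving out 1 library at a time gave log2 fold changes of −0.0062 to 0.15 for UBE2C, 0.17 to 0.28 for UBE2S, −0.0012 to 0.0766 for FZR1, 0.12 to 0.17 for CDC27, −0.17 to −0.0889 for CDC16, 0.14 to 0.21 for ANAPC1 and 0.0854 to 0.11 for ANAPC5. UBE2C and FZR1 turned negative without siDYRK2 replicate 3, and neither was called. Counts called in either direction were 2 to 5 of the 10 genes and 1 to 2 of the other core subunits. The 5, without scramble replicate 1, were 4 genes called higher and CDC16 called lower. Counts were 0 to 1 of CDC20 and UBE2D1 and 4 to 6 of the inhibitors and checkpoint genes. Of the kinase, phosphatase and deubiquitinase list 2 to 4 were called. Over all alternatives 2332 to 3203 genes were called higher and 2099 to 2860 lower. Depth is unknown, and 3 libraries a group limit all tests.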
